A study of Bos taurus with 10 samples.

Results

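Solute carriers (SLC genes) are the membrane proteins that move sugars, amino acids, ions, metals, vitamins and nucleotides across cell and organelle membranes. A gene was taken here as an expressed solute carrier gene where its symbol began with SLC and a number, it stood on 1 line of the deposited table, and its mean over all 10 libraries was at least 3 FPKM, a level that corrects fragment numbers for transcript length and library size. Of 359 such symbols, 139 (38.7%) met this rule, out of 28700 genes on 1 line in all. Because the genes were chosen by their mean FPKM, their levels are a description and carry no test.

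The embryos were bovine. As zygotes they received an injection of siRNAs that target H1FOO, which encodes an oocyte linker histone, and these are called knockdown (KD) embryos. Control (NC) embryos were injected as well, with negative control siRNAs. Poly(A) RNA was sequenced from morulae at day 5.5 after insemination, with 3 KD and 3 NC libraries, and from embryos at the 8/16-cell stage at day 4, with 2 KD and 2 NC libraries. An siRNA acts for a limited time. The number of embryos in a library, their sex, parents and breed are not given in the sources used here.

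The families differ in how they work. SLC2 proteins let hexoses move down their gradient, SLC16 proteins move lactate and pyruvate with protons, and many amino acid carriers exchange one amino acid for another or use the sodium gradient. Most SLC25 proteins sit in the inner membrane of mitochondria and pass nucleotides, phosphate, metabolites and iron, and a few sit in the outer membrane or in peroxisomes. Early mammalian embryos take up pyruvate, lactate and amino acids first and make more use of glucose as they compact and form a blastocyst.

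H1FOO stood at 0.061, 0.191 and 0.251 FPKM in KD morulae, against 0.294, 1.05 and 2.17 FPKM in NC morulae. KD embryos of the 8/16-cell stage had 0.649 and 0.0736 FPKM, against 50.8 and 10.8 FPKM in their NC counterparts. The target was therefore lower in every KD library, and low in both treatments by the morula stage. Summed FPKM per library lay between 345464 and 669836, and 11103 to 11872 genes reached 1 FPKM. The solute carrier genes held 0.585% to 1.16% of that sum, and the lowest share belonged to KD 8/16-cell replicate 1, where the microRNA genes MIR2887-1 and MIR2887-2 were listed at 45300 and 136000 FPKM. RN18S1, the 18S ribosomal RNA gene, was at 9053, 8553 and 11581 FPKM in KD morulae and at 2704, 2983 and 8611 FPKM in NC morulae. Its part in the treatment values below was tested only as a covariate, described with them.

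Most of the 139 genes were present throughout. A total of 134 reached 1 FPKM in every library and 105 reached 3 FPKM in every library. The median gene averaged 12.0 FPKM, 7 genes averaged at least 100 FPKM, 34 at least 30 FPKM, and 61 stayed under 10 FPKM. For 21 genes at least 1 group mean was under 3 FPKM, so they entered through the other groups. The genes just inside the limit were SLC19A2 (3.03 FPKM), SLC35E3 (3.15 FPKM) and SLC25A35 (3.25 FPKM), and those just outside were SLC35D1 (2.91 FPKM), SLC40A1 (2.74 FPKM) and SLC10A6 (2.68 FPKM).

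Of the 220 SLC genes left out, 179 averaged under 1 FPKM and 14 were listed at 0 in every library. The SLC families were unequally represented, with at least 1 expressed gene in 38 of 50 families. All 20 SLC22 genes, which carry organic ions and drugs mainly in liver and kidney, were under the limit, and only SLC6A8 passed among 19 SLC6 genes. Several carriers often studied in embryos were low, with means of 1.03 FPKM for SLC16A3 (a lactate exporter), 0.209 FPKM for SLC6A9 (glycine), 0.0731 FPKM for SLC6A6 (taurine) and 0.0281 FPKM for SLC7A11 (cystine).

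Classes were assigned by family number with some genes placed singly, so the substrate of a single gene may be uncertain. By substrate, the largest class was the mitochondrial SLC25 carriers, with 33 expressed of 45 genes. Metal carriers followed with 22 of 34, amino acid and peptide carriers with 19 of 63, and nucleotide sugar carriers with 17 of 27. Vitamins, lipids and other organic solutes were served by 17 of 79, inorganic ions by 15 of 58, sugars by 7 of 28, nucleosides by 4 of 8 and monocarboxylates by 2 of 14. Another 3 expressed genes, SLC9A3R1, SLC7A6OS and SLC4A1AP, are named after a carrier but encode other proteins. They were kept because the rule goes by symbol. Only expressed genes were set apart in this way. SLC2A4RG and SLC9A3R2, under the limit and also named after a carrier, remain in the totals for sugars and inorganic ions. SLC7A6 and SLC7A6OS overlap as neighbours in the RefSeq annotation of assembly ARS-UCD2.0, and without strand their reads cannot be told apart.

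Among sugar carriers 1 gene stood far above the rest. SLC2A3, a high-affinity glucose carrier known from neurons and trophoblast, had the highest mean of all 139 genes over the 10 libraries, although the ADP/ATP carrier SLC25A6 was above it in all 3 NC morulae and in KD morula replicates 1 and 3. It was at 368, 500 and 349 FPKM in KD morulae, at 333, 403 and 320 FPKM in NC morulae, at 325 and 532 FPKM in KD embryos of the 8/16-cell stage and at 511 and 506 FPKM in their NC counterparts. Its groups overlapped within each stage, and among the 5 expressed SLC2 genes it made up 61.3% to 88.2% of the summed FPKM in every library. The other SLC2 genes averaged 45.9 FPKM for SLC2A5 (fructose), 31.1 FPKM for SLC2A1 (the widespread basal glucose carrier), 28.4 FPKM for SLC2A8 (an intracellular hexose carrier) and 5.45 FPKM for SLC2A4 (the insulin-responsive carrier of muscle and fat). SLC16A1, the main carrier of lactate and pyruvate, averaged 70.3 FPKM.

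Among amino acid carriers SLC1A5, which exchanges glutamine and other neutral amino acids, averaged 281 FPKM. Next came SLC1A1 (glutamate and aspartate, 52.2 FPKM), SLC15A4 (histidine and peptides in lysosomes, 44.4 FPKM) and SLC7A8 (neutral amino acids, 39.3 FPKM). SLC7A8 and SLC7A5 (32.9 FPKM) work as light chains bound to the heavy chain encoded by SLC3A2 (33.6 FPKM). The arginine carrier SLC7A1 averaged 3.76 FPKM. The other 12 amino acid and peptide carriers lay between 3.46 and 26.9 FPKM.

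Mitochondrial carriers were led by SLC25A6, an ADP/ATP carrier, at 405 FPKM and by the phosphate carrier SLC25A3 at 216 FPKM. Among metal carriers the copper importer SLC31A1 (173 FPKM) and the zinc importer SLC39A4 (85 FPKM) were highest. Among ion carriers the phosphate carriers SLC20A1 (78.7 FPKM) and SLC34A2 (68.2 FPKM) led. SLC5A6, which takes up biotin and pantothenate, averaged 160 FPKM, and the creatine carrier SLC6A8 averaged 132 FPKM. The highest nucleotide sugar carrier, SLC35A4, reached 25.3 FPKM and the highest nucleoside carrier, SLC29A1, reached 20.6 FPKM.

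**Figure D1:**
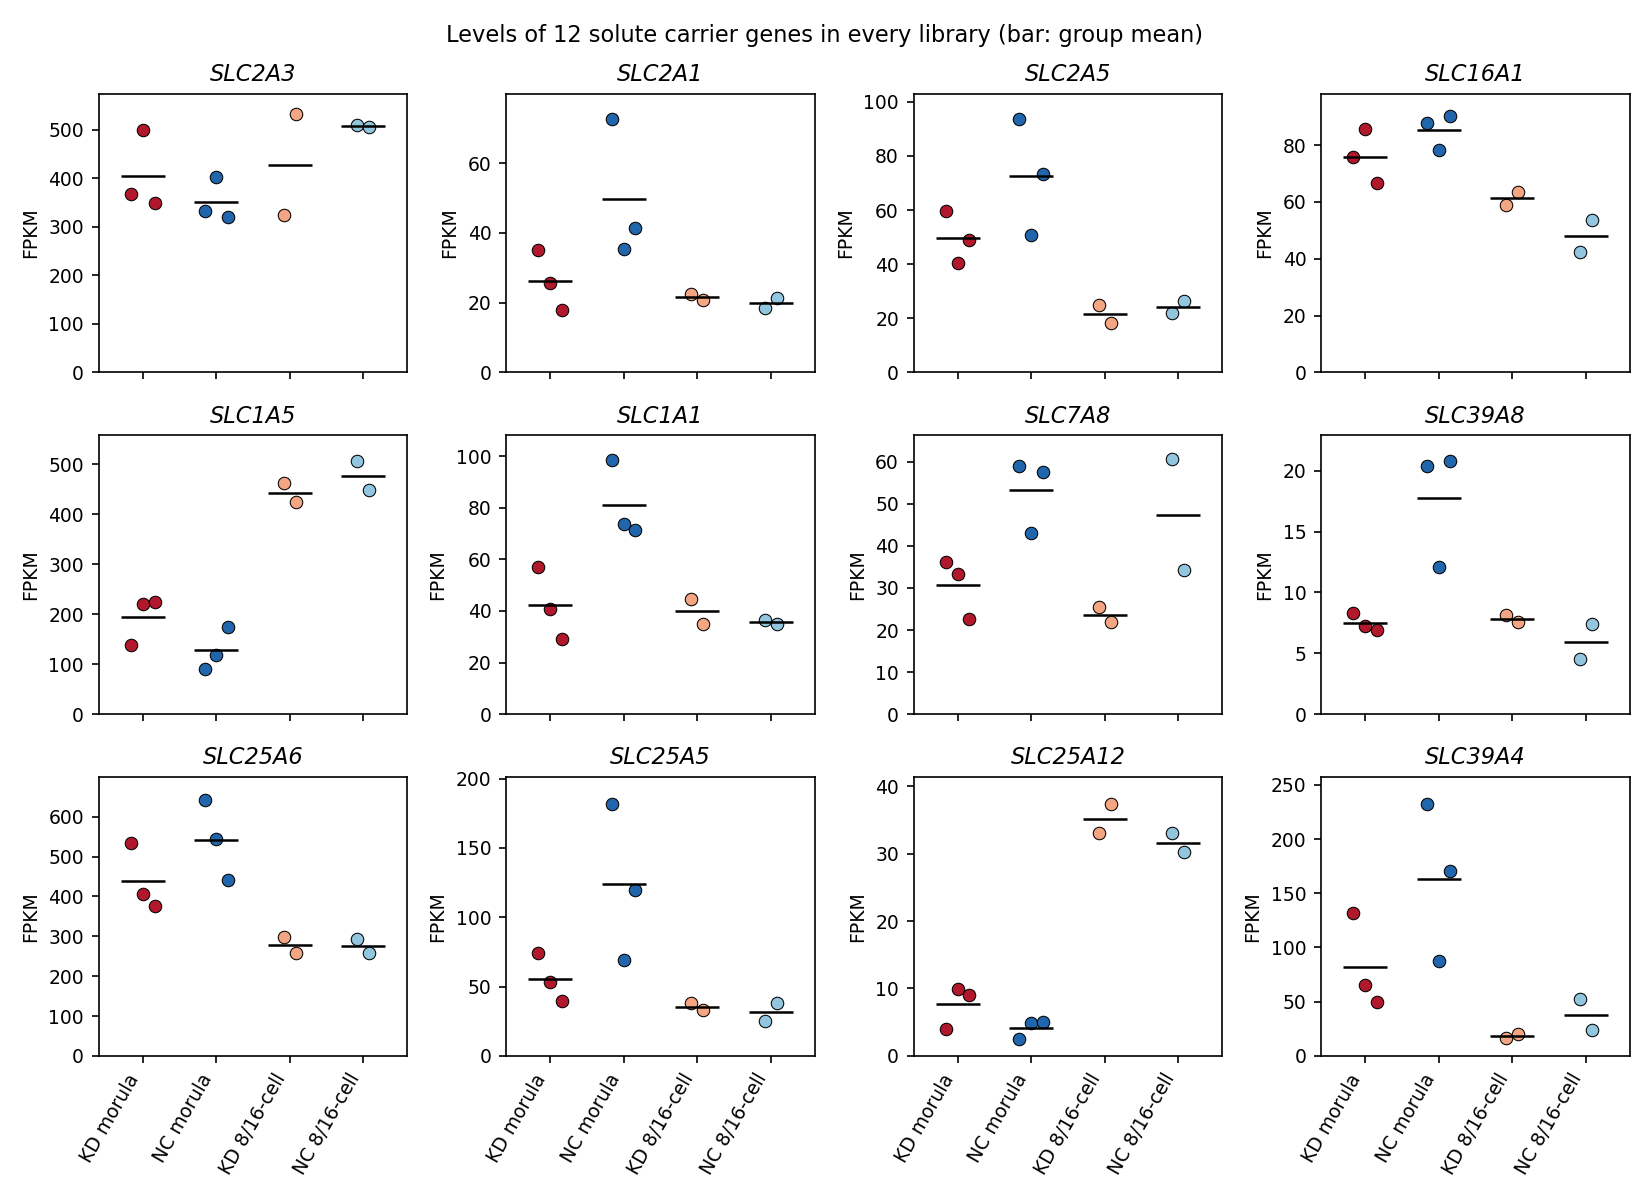
FPKM of 12 solute carrier genes in each library (points) with group means (bars), for KD and NC morulae and KD and NC embryos of the 8/16-cell stage. SLC2A3 stayed between 320 and 532 FPKM throughout, SLC25A12 was far lower in morulae than at the 8/16-cell stage, and SLC39A8 was below all 3 NC morulae in all 3 KD morulae.

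Stage was compared within each treatment with limma, fitted to log2(FPKM + 1) of the 11761 genes that averaged 1 FPKM or more. The threshold was an adjusted p of 0.05 (Benjamini-Hochberg, over all genes tested), and differences are morula minus 8/16-cell on that log2 scale, which understates changes of low genes. The p-values weigh a difference against the spread among these libraries alone, which may be technical. In NC embryos 33 solute carrier genes rose by the morula stage and 29 fell, so 44.6% passed, beside 30.8% of all genes tested (12.6% higher and 18.2% lower) and 32.6% of tested genes that averaged 3 FPKM or more. Libraries of the 2 stages did not overlap for 46 genes that were higher and 47 that were lower in morulae, beside 56.9% of all genes (24.3% higher and 32.6% lower). The median difference of the 139 genes was 0.02, against -0.07 for all genes. Other scalings left rises near that number and lowered the falls, with 34 and 25 under quantile normalization, 35 and 23 under median ratio scaling, and 33 and 20 with equal sums without the MIR2887 genes. None of the 62 genes changed sign, and 52 to 57 of them still passed.

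Among the 81 gene symbols that stand on several lines of the deposited table, 75 hold more distinct lines in the morula columns than in the 8/16-cell columns. Whether the columns of the stages were made together is not given in the sources used here, so stage and processing cannot be told apart. In bulk embryos fewer cells of a type and less RNA per cell cannot be told apart either. The 21 genes that entered through their higher groups add to the number that passed, and among the 118 genes with every group mean at 3 FPKM or more 51 passed in NC embryos. SLC25A31, SLC25A37, SLC30A4, SLC38A1 and SLC7A4, named below, are among the 21, so their stage p-values are no support for a difference. Dropping NC 8/16-cell replicate 1 left 30 of the 139 genes, and dropping NC 8/16-cell replicate 2 left 33, with 1 library then standing for its group.

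**Figure D2:**
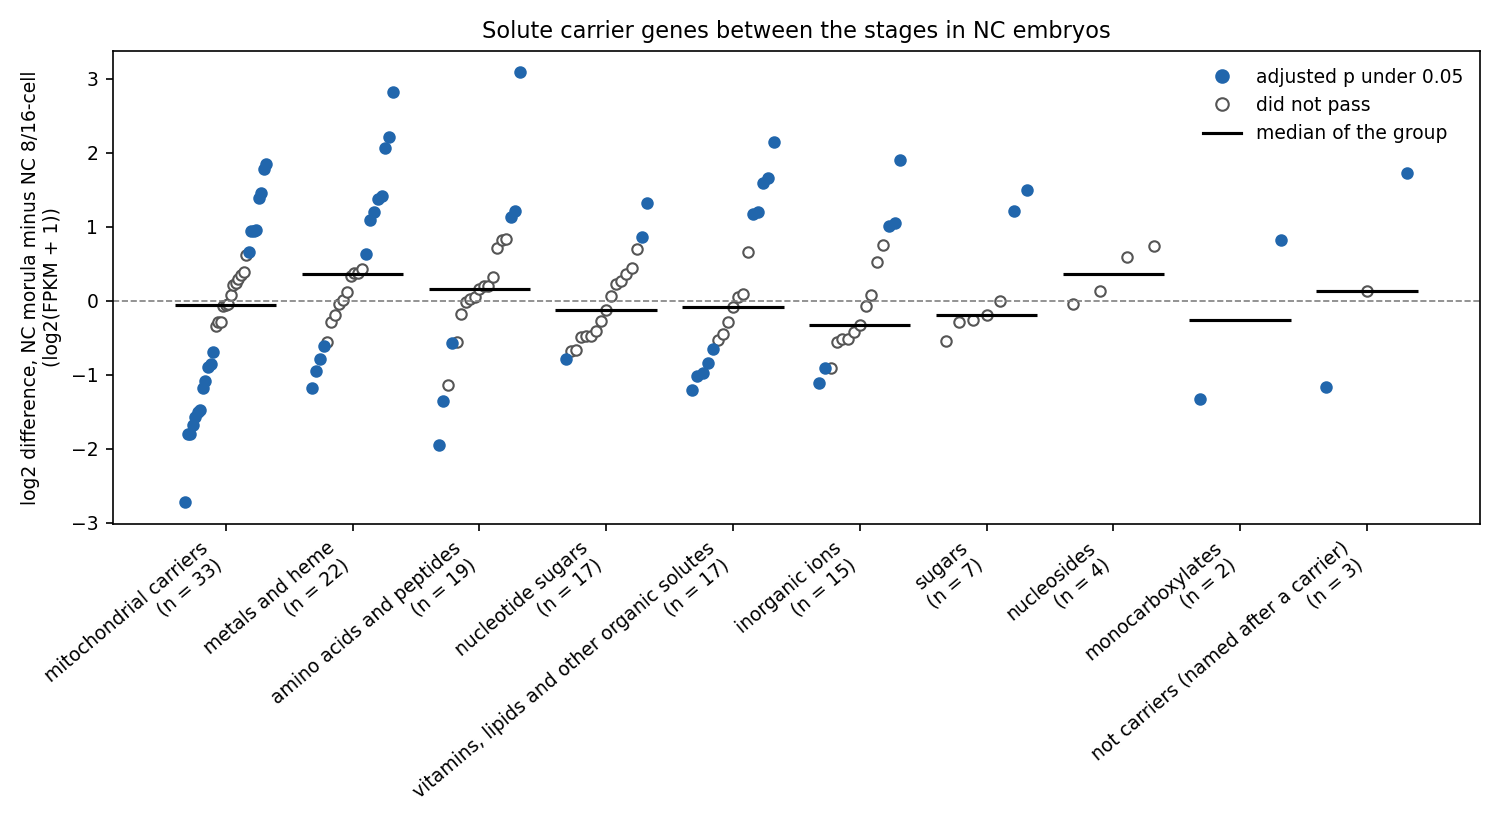
Log2 difference of each solute carrier gene between NC morulae and NC embryos of the 8/16-cell stage, by substrate class; filled points passed at an adjusted p under 0.05, open points did not, and bars are class medians. Mitochondrial carriers spread from -2.72 to 1.85 with 8 that rose and 12 that fell (60.6%, beside 30.8% of all genes).

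Mitochondrial carriers changed in both directions. In NC embryos 8 of 33 rose and 12 fell, with a median difference of -0.05 (0.04 under median ratio scaling). Those that passed were 60.6%, beside 30.8% of all genes (12.6% higher and 18.2% lower). The deepest fall of all 139 genes was that of SLC25A12, the aspartate/glutamate carrier that feeds the malate-aspartate shuttle. It was at 2.5, 4.81 and 4.96 FPKM in NC morulae, against 33.0 and 30.3 FPKM in NC embryos of the 8/16-cell stage (log2 difference -2.72, SE 0.34, adjusted p 0.000595). Its relative SLC25A13, which carries the same substrates, stayed at 3.85 to 5.74 FPKM in NC morulae and at 5.26 and 5.07 FPKM at the earlier stage (-0.05, adjusted p 0.89). SLC25A13 was picked for this contrast after its values were seen.

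The values of 2 iron carriers of mitochondria differed in opposite directions between the stages. SLC25A28 (mitoferrin-2) was at 8.77, 7.48 and 7.9 FPKM in NC morulae, against 31.2 and 29.8 FPKM in NC embryos of the 8/16-cell stage (-1.80, SE 0.19, adjusted p 0.000313). SLC25A37 (mitoferrin-1), known from red cell precursors, was at 10, 7.33 and 8.31 FPKM in NC morulae, against 1.52 and 2.01 FPKM (1.78, SE 0.25, adjusted p 0.00115). SLC25A37 is among the 21 genes that entered through their higher groups, so this p is no support for a difference. Their levels thus came close together in NC morulae while SLC25A28 was far above SLC25A37 earlier.

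Other carriers that fell included SLC25A44 (branched-chain amino acids, -1.80), SLC25A25 (ATP-Mg and phosphate, -1.57) and SLC25A30 (-1.47). SLC25A44 was at 17.0, 16.2 and 17.8 FPKM in NC morulae, against 69.4 and 54.6 FPKM at the 8/16-cell stage. Those that rose included the phosphate carrier SLC25A3 (1.39) and the dicarboxylate carrier SLC25A10 (1.46). SLC25A3 was at 350, 218 and 400 FPKM in NC morulae, against 120 and 118 FPKM in the earlier NC embryos. Further changes, named after their values were seen, were rises of SLC25A46, a protein of the outer mitochondrial membrane (0.94), the peroxisomal carrier SLC25A17 (0.96) and SLC25A11 (0.66). Falls were seen for the folate carrier SLC25A32 (-1.08), the glutamate carrier SLC25A22 (-0.85), the glycine carrier SLC25A38 (-0.69), SLC25A27 (-1.18) and SLC25A33 (-0.89).

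The 4 ADP/ATP carriers exchange ATP made in mitochondria for cytosolic ADP. In NC embryos the shares of SLC25A6 and SLC25A5 within their sum overlapped between the stages, and those of SLC25A4 and SLC25A31 did not. In KD embryos the SLC25A5 shares overlapped, and SLC25A6 held 82.5% to 84.1% in morulae, against 77.8% and 76.4% earlier. SLC25A5 was at 182, 69.5 and 120 FPKM in NC morulae, against 25.4 and 38.2 FPKM in NC embryos of the 8/16-cell stage (1.85, SE 0.37, adjusted p 0.00518). Leaving out NC 8/16-cell replicate 1 gave 1.56 (adjusted p 0.066). SLC25A6 also rose (0.95, adjusted p 0.0115). SLC25A31, the form known from testis and germ cells, was at 1.41, 2.15 and 1.02 FPKM in NC morulae, against 7.43 and 6.56 FPKM (-1.68, SE 0.31, adjusted p 0.0033). That gene entered through its higher groups, so its p is no support for a difference. SLC25A4, the form of heart and muscle, had a difference of -0.34 (adjusted p 0.172). SLC25A4, SLC25A5 and SLC25A6 are close paralogs that may share reads, which makes their separate values uncertain.

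**Figure D3:**
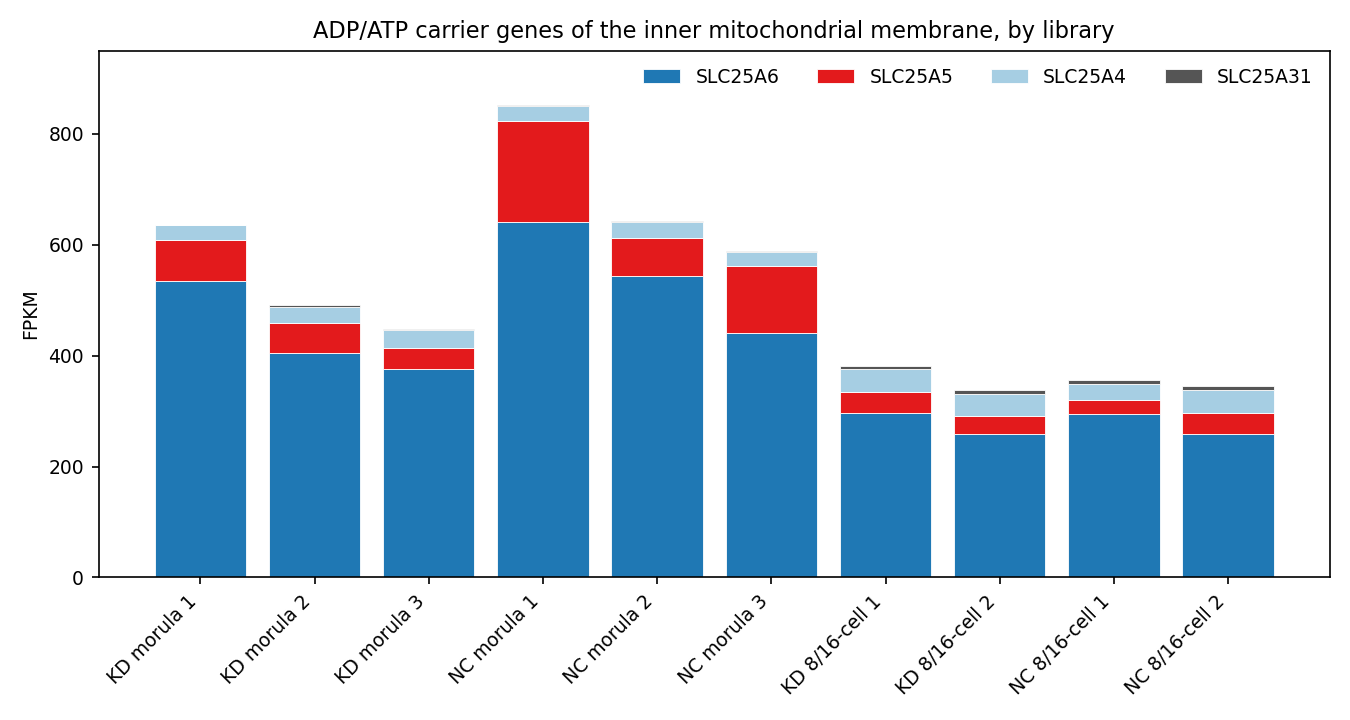
Stacked FPKM of the 4 ADP/ATP carrier genes in each library. SLC25A6 holds 74.9% to 84.5% of each bar, the bars of NC morulae (588 to 852 FPKM) are taller than those of NC embryos of the 8/16-cell stage (346 to 357 FPKM), and KD morulae reach 448 to 637 FPKM.

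Within the sum of these 4 genes SLC25A6 held 74.9% to 84.5% in all 10 libraries. SLC25A31 held 0.144% to 0.558% in morulae and 1.7% to 2.08% at the 8/16-cell stage, over both treatments. The sum was 448 to 637 FPKM in KD morulae and 588 to 852 FPKM in NC morulae, against 337 to 381 FPKM in KD and 346 to 357 FPKM in NC embryos of the 8/16-cell stage. No morula library overlapped an earlier one in that sum.

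Among metal carriers 8 of 22 rose and 4 fell in NC embryos, with a median difference of 0.36. Those that passed were 54.5%, beside 30.8% of all genes (12.6% higher and 18.2% lower). The counts were 9 and 3 under median ratio scaling and 7 and 1 with equal sums without the MIR2887 genes. Zinc importers and exporters were among both. SLC39A2, a zinc importer, was at 26.3, 22.0 and 39.6 FPKM in NC morulae, against 2.0 and 4.83 FPKM in NC embryos of the 8/16-cell stage (2.82, SE 0.35, adjusted p 0.000635). SLC39A4, the intestinal zinc importer mutated in acrodermatitis enteropathica, was at 232, 87.4 and 171 FPKM, against 52.1 and 24.2 FPKM (2.06, SE 0.48, adjusted p 0.00975). That call was lost without NC 8/16-cell replicate 2, which gave 1.52 (adjusted p 0.107).

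SLC30A2, which loads zinc into vesicles, was at 60.3, 29.7 and 31.5 FPKM in NC morulae, against 9.49 and 5.88 FPKM earlier (2.21, adjusted p 0.00239). SLC30A4, another vesicular zinc carrier that entered through its higher groups, had a difference of -1.18 (adjusted p 0.0306, no support for a difference). The call was lost in 6 alternatives, among them leaving out either NC 8/16-cell library. Other falls were those of the copper carrier SLC31A2 (-0.94) and the zinc carriers SLC39A10 (-0.79) and SLC30A7 (-0.61), named after their values were seen. The magnesium carriers SLC41A1 (1.2) and SLC41A2 (1.38), the zinc and manganese importer SLC39A8 (1.42) and the iron importer SLC11A2 (1.09) rose. The summed FPKM of the 10 zinc importers was 3.18 to 4.55 times that of the 7 exporters in NC morulae and 2.68 to 2.69 times at the earlier stage. In KD embryos this ratio was 2.98 to 3.79 in morulae and 2.49 to 2.75 at the 8/16-cell stage. The stage difference in NC embryos rested on SLC39A4: without it the ratio was 1.88 to 2.6 in NC morulae and 2.02 to 2.35 at the earlier stage, which overlap. The copper importer SLC31A1 had a stage difference of 0.12 (adjusted p 0.646).

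Of 19 amino acid carriers 3 rose and 3 fell in NC embryos, or 4 and 2 under each of the other 3 scalings. Without rescaling 31.6% passed, near the 30.8% of all genes. SLC1A5 was at 90.4, 118 and 174 FPKM in NC morulae, against 506 and 449 FPKM at the 8/16-cell stage (-1.95, SE 0.29, adjusted p 0.00143). SLC1A1 was at 98.5, 73.7 and 71.4 FPKM, against 36.6 and 35.0 FPKM (1.14, adjusted p 0.00945). The levels of these SLC1 relatives were far apart in the earlier NC embryos and overlapped in range in NC morulae.

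The neighbouring genes SLC38A1 and SLC38A2 encode sodium-coupled carriers of small neutral amino acids, and they moved in opposite directions. SLC38A1, among the 21 genes that entered through their higher groups, was at 1.58, 1.68 and 0.9 FPKM in NC morulae, against 4.52 and 5.54 FPKM (-1.35, adjusted p 0.00258). SLC38A2 was at 12.1, 10.5 and 7.75 FPKM, against 2.94 and 4.62 FPKM (1.22, adjusted p 0.0106). SLC7A4, related to the cationic amino acid carriers, was one of the 21 genes that entered the set through their higher groups, here the morulae. It rose, at 21.8, 4.33 and 16.0 FPKM in NC morulae against 0.812 and 0.241 FPKM (3.09, SE 0.63, adjusted p 0.00523). Without NC 8/16-cell replicate 2 its adjusted p was 0.0536. The heavy chain SLC3A2 (0.72, adjusted p 0.0808) and the light chains SLC7A5 (0.33) and SLC7A8 (0.20) did not pass.

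Of the 7 genes classed as sugar carriers, which include the 5 expressed SLC2 genes, 2 rose in NC embryos and none fell. That is 28.6%, near the 30.8% of all genes. SLC2A5 was at 93.5, 50.7 and 73.5 FPKM in NC morulae, against 22.0 and 26.5 FPKM at the 8/16-cell stage (1.5, SE 0.27, adjusted p 0.00283). SLC2A1 was at 72.7, 35.3 and 41.3 FPKM, against 18.6 and 21.4 FPKM (1.21, SE 0.32, adjusted p 0.017). For SLC2A3 the difference was -0.54 (adjusted p 0.128). The ratio of SLC2A3 to SLC2A1 was 4.58 to 11.4 in NC morulae and 23.6 to 27.4 in the earlier NC embryos. In KD embryos this ratio was 10.5 to 19.6 in morulae and 14.4 and 25.4 at the 8/16-cell stage, which overlap. SLC16A1 rose (0.82, adjusted p 0.00672) and SLC16A6, of the same family, fell (-1.33, adjusted p 0.00191).

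Among ion carriers 3 of 15 rose and 2 fell in NC embryos (33.3%, near the 30.8% of all genes). The rises included the potassium/chloride cotransporter SLC12A4 (1.91) and its relative SLC12A9 (1.05), and the falls were the anion exchanger SLC26A4 (-1.11) and the phosphate carrier SLC34A2 (-0.91). SLC12A4 was at 32.8, 16.0 and 18.9 FPKM in NC morulae, against 5.61 and 4.47 FPKM. SLC12A2, the sodium-coupled relative that brings chloride in, had a difference of -0.90 and did not pass (adjusted p 0.0526).

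Carriers of vitamins, lipids and other organic solutes gave 5 rises and 5 falls among 17 in NC embryos (58.8%, beside 30.8% of all genes). The counts were 5 and 4 under quantile normalization, 5 and 3 under median ratio scaling and 5 and 2 with equal sums without the MIR2887 genes. SLC44A2, a choline carrier, was at 30.1, 15.6 and 19.7 FPKM in NC morulae, against 4.19 and 3.75 FPKM (2.15, SE 0.29, adjusted p 0.000936). The creatine carrier SLC6A8 was at 290, 217 and 152 FPKM, against 64.4 and 69.2 FPKM (1.66, adjusted p 0.00178), and the fatty acid carrier SLC27A4 also rose (1.59). SLC5A6 was at 81.6, 79.1 and 138 FPKM, against 232 and 214 FPKM (-1.20, adjusted p 0.00819); without NC 8/16-cell replicate 1 its adjusted p was 0.0706. Of 17 nucleotide sugar carriers SLC35C1 (GDP-fucose, 1.33) and SLC35A2 (UDP-galactose, 0.86) rose and SLC35A5 fell (-0.79). That is 17.6%, beside 30.8% of all genes. None of the 4 nucleoside carriers passed (limma, 0 with an unadjusted p under 0.05, the lowest being 0.0845). Of the 3 genes that are not carriers, SLC9A3R1, a scaffold that binds ion exchangers at the membrane, rose, at 97.4, 41.7 and 78.3 FPKM in NC morulae against 25.8 and 15.4 FPKM (1.73, adjusted p 0.0054). Without NC 8/16-cell replicate 2 its adjusted p was 0.0662. SLC7A6OS fell (-1.16, adjusted p 0.00112).

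In KD embryos 16 solute carrier genes rose by the morula stage and 20 fell (25.9%), beside 20% of all genes tested (5.22% higher and 14.8% lower). Libraries of the stages did not overlap for 37 higher and 48 lower genes, beside 53.3% of all genes (16.6% higher and 36.7% lower). This balance depended on scaling, since the median of all genes was -0.18 in this comparison and moved to -0.01 with quantile normalization. Under quantile normalization 27 rose and 10 fell, under median ratio scaling 25 and 9, and with equal sums without the MIR2887 genes 21 and 6. All 36 genes kept their sign under these 3 scalings, and 22 to 26 of them still passed. The count was 17 without KD morula replicate 1, 22 without KD morula replicate 2, 10 without KD 8/16-cell replicate 1 and 9 without KD 8/16-cell replicate 2. With a replicate block shared over the stages 55 genes passed in KD embryos (30% of all genes) and 76 in NC embryos (39% of all genes).

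Stage differences in the separate KD and NC libraries resembled each other. Of the genes that passed, 29 did so in both treatments, which is 80.6% of the KD calls and 46.8% of the NC calls, and all 29 had the same sign. Of the 62 NC calls, 61 had the same sign in KD embryos. Across the 139 genes the differences correlated with r = 0.872 (0.717 over all genes tested), a description over genes that share libraries and scaling within each treatment. The median size of the difference was 0.49 in KD and 0.65 in NC embryos (0.41 and 0.49 over all genes). Of the 62 NC calls 60 were larger in NC embryos, a comparison that the choice of NC calls favours.

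**Figure D4:**
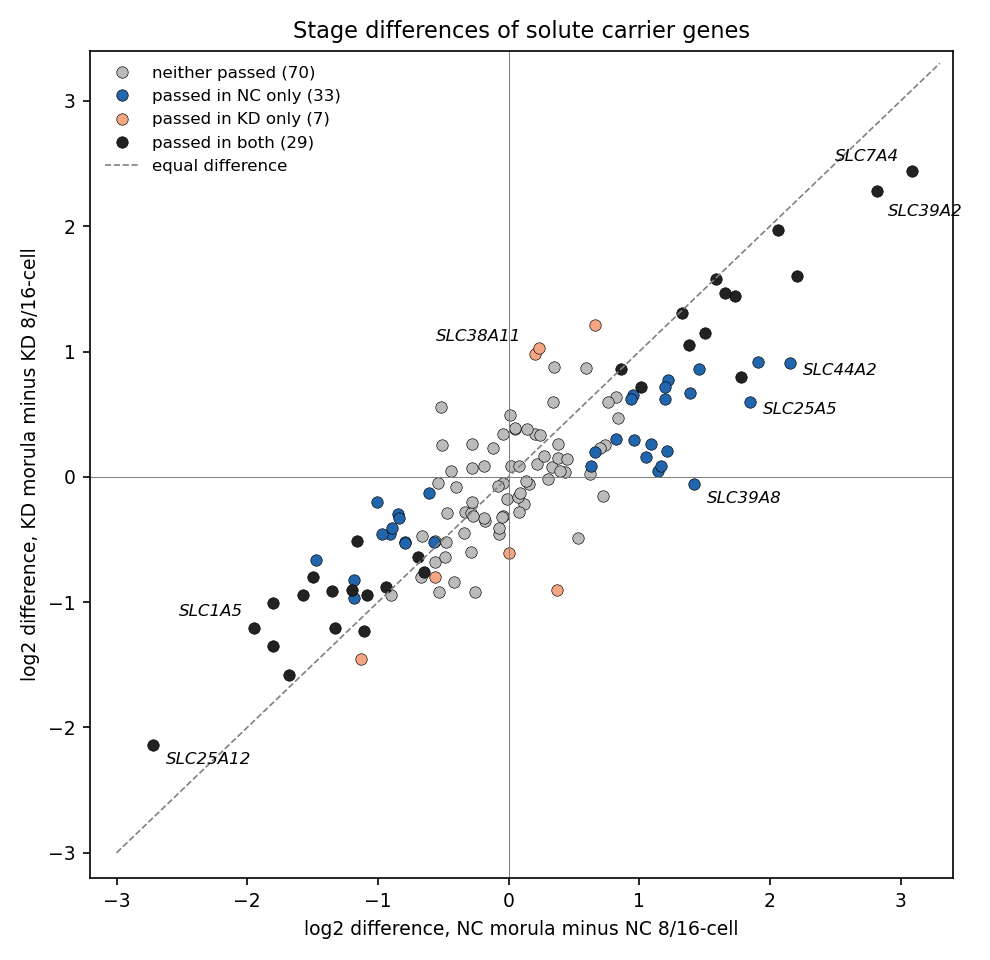
Log2 difference between morula and 8/16-cell stage of the 139 solute carrier genes in NC (horizontal) and KD (vertical) embryos, coloured by where the gene passed. Genes that passed in both treatments (29) lie in the 2 quadrants of equal sign, and SLC39A8 lies near 0 on the vertical axis.

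Large stage changes of NC embryos recurred in KD embryos for SLC25A12 (4.03, 9.92 and 9.09 FPKM in KD morulae, against 33.1 and 37.3 FPKM in KD embryos of the 8/16-cell stage, -2.14, adjusted p 0.00335). They also recurred for SLC39A2 (2.28, adjusted p 0.0032), SLC7A4 (2.44, adjusted p 0.0232), SLC6A8 (1.47, adjusted p 0.00572), SLC27A4 (1.58, adjusted p 0.00385) and SLC1A5 (-1.21, adjusted p 0.0181). SLC25A28 (-1.35), SLC25A44 (-1.01), SLC25A31 (-1.58) and SLC2A5 (1.15) passed as well.

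Other genes had smaller differences in KD embryos. SLC39A8 was at 8.33, 7.25 and 6.92 FPKM in KD morulae and at 8.18 and 7.53 FPKM in KD embryos of the 8/16-cell stage (-0.06, adjusted p 0.891), beside a rise of 1.42 in NC embryos. SLC1A1 (0.05), SLC2A1 (0.21) and SLC25A5 (0.60) likewise did not pass in KD embryos. Genes that passed in KD embryos alone were SLC38A11 (0.98), SLC44A4 (1.21) and SLC35B4 (1.03), which rose, and SLC7A2 (-1.45), SLC26A6 (-0.80), SLC35F5 (-0.90) and SLC37A3 (-0.61), which fell.

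The difference between these stage changes was tested as an interaction, and 0 of the 139 genes passed (lowest adjusted p 0.435, for SLC39A8), beside 0.017% of all genes. Another 17 had an unadjusted p under 0.05 in limma, beside 9.39% of all genes, and in the fit with the replicate block the lowest adjusted p was 0.0947 and again 0 passed, beside 0.272% of all genes. A change that passed in 1 treatment was thus not shown to differ from that in the other. By class, mitochondrial carriers gave 1 rise and 8 falls in KD embryos, a split that became 6 and 6 under quantile normalization and 5 and 6 under median ratio scaling. Metal carriers gave 4 rises and 1 fall, or 6 and 0 under either of those scalings. Without rescaling 27.3% of mitochondrial and 22.7% of metal carriers passed, beside 20% of all genes (5.22% higher and 14.8% lower).

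At the morula stage the effect of the knockdown was compared between 3 KD and 3 NC libraries. Without a block, 0 of the 139 genes passed, beside 0.697% of all genes tested. In the same fit 41 genes (29.5%) had an unadjusted p under 0.05, beside 21.2% of all genes. Libraries did not overlap for 16 genes that were higher and 20 that were lower in KD morulae (25.9%), beside 23.8% of all genes (8.44% higher and 15.3% lower). Leaving out KD morula replicate 1 gave 9 genes that passed, and leaving out NC morula replicate 2 gave 1.

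Libraries of the same replicate number deviated together at this stage, so the number was also fitted as a block. The labels do not give this pairing. The blocked fit compares each KD morula library with the NC library of its number. It called 26 of the 139 genes (18.7%), 9 higher and 17 lower in KD, beside 11.9% of all genes tested (3.89% higher and 8% lower) and 13.8% of tested genes that averaged 3 FPKM or more. The 26 sizes ran from 0.56 to 1.12 on the log2 scale. All 3 pairs went in the direction of the call for each of the 26, and libraries did not overlap for 18. Both are favoured by the choice of calls on these same pairs and are no further support. The median difference of the 139 genes was -0.07, against -0.08 for all genes, and it was 0.03 under quantile normalization. Of the 118 genes with every group mean at 3 FPKM or more, 24 were called. Calls outside these 118, SLC38A1 among them, are of genes that entered through their higher groups and are no support for a difference.

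The blocked calls depended on single pairs. Without the libraries numbered 1 or those numbered 3 the blocked fit called 0, and without those numbered 2 it called 11 (limma). With quantile normalization the blocked fit called 27 genes, 16 higher and 11 lower, of which 20 were among the 26. Median ratio scaling gave 11 higher and 15 lower, and none of the 26 changed sign under either scaling. With RN18S1 as a covariate beside the block 4 genes passed, 3 of them among the 26, and all 26 kept their sign. Shares of all genes are not set beside these alternative counts, which describe the fits and are no result about solute carriers.

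**Figure D5:**
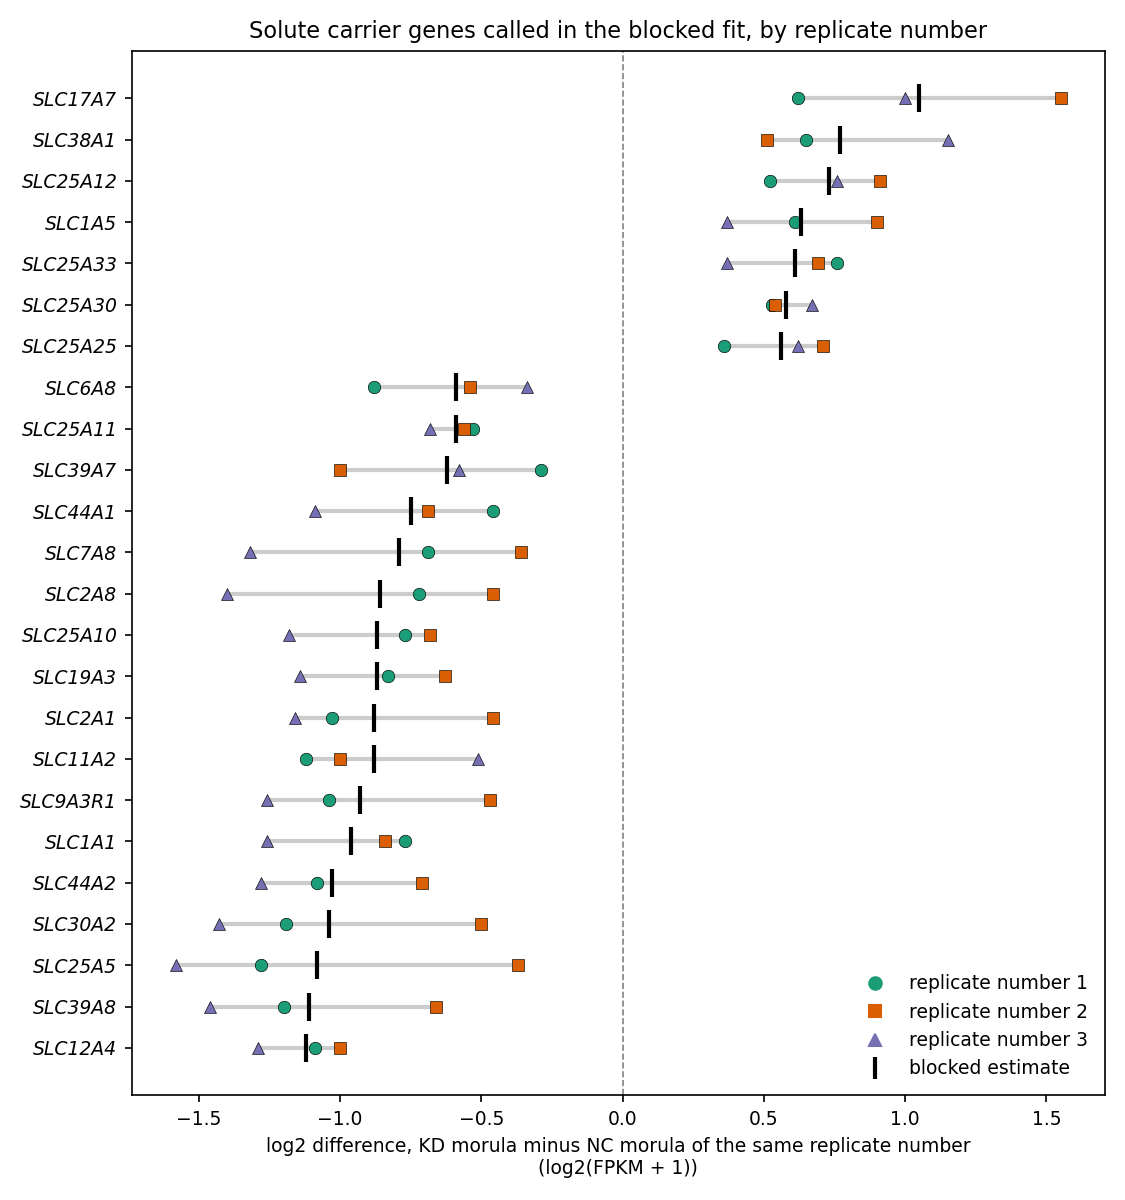
Log2 difference between KD and NC morulae of the same replicate number for 24 of the 26 solute carrier genes called in the blocked fit (symbols: the 3 replicate numbers; black bars: blocked estimate). All 3 symbols of each gene shown lie on the side of its call, which the choice of calls favours. The estimates shown run from 1.05 for SLC17A7 down to -1.12 for SLC12A4.

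Amino acid carriers were called in both directions. SLC1A1 was at 57.2, 40.8 and 29.3 FPKM in KD morulae, against 98.5, 73.7 and 71.4 FPKM in NC morulae (-0.96, SE 0.24, adjusted p 0.0722; blocked adjusted p 0.00716). SLC7A8 was also lower, at 36.1, 33.3 and 22.6 FPKM in KD morulae, against 58.9, 43.0 and 57.6 FPKM in NC morulae (-0.79, blocked adjusted p 0.0385). In neither gene did the groups overlap.

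SLC1A5 was higher, at 138, 221 and 225 FPKM in KD morulae, against 90.4, 118 and 174 FPKM in NC morulae (0.63, adjusted p 0.205; blocked adjusted p 0.0219). Its groups overlapped, while each KD library was above the NC library of its number. SLC38A1 was at 3.05, 2.83 and 3.22 FPKM in KD morulae, against 1.58, 1.68 and 0.9 FPKM in NC morulae (0.77, blocked adjusted p 0.0392). It is among the 21 genes that entered through their higher groups, so this p is no support for a difference. For the light chain SLC7A5 (-0.24) and its heavy chain SLC3A2 (-0.18) the blocked adjusted p was 0.436 and 0.542.

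SLC1A3, a glutamate carrier of glia and other cells, missed the level limit with a mean of 1.5 FPKM. It was at 0.889, 0.279 and 0.0272 FPKM in KD morulae, against 6.93, 4.48 and 2.17 FPKM in NC morulae (-1.93, adjusted p 0.0413 without the block). It reached the 1 FPKM filter only through NC morulae, the group where it was high, so this p is no support for a difference.

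The 2 sugar carriers called in the blocked fit were both lower in KD morulae, beside 8% of all genes lower and 3.89% higher. SLC2A1 was at 35.1, 25.5 and 18 FPKM in KD morulae, against 72.7, 35.3 and 41.3 FPKM in NC morulae (-0.88, SE 0.28, adjusted p 0.122; blocked adjusted p 0.0161). SLC2A8 was at 23.4, 16.8 and 11.2 FPKM in KD morulae, against 39.1, 23.5 and 31.3 FPKM in NC morulae (-0.86, blocked adjusted p 0.0238). The groups of both genes did not overlap. SLC2A5 (-0.51, blocked adjusted p 0.0757), SLC2A3 (0.19, blocked adjusted p 0.422) and SLC16A1 (-0.17, blocked adjusted p 0.463) were not called.

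The 4 metal carriers called in the blocked fit were all lower in KD morulae, where calls over all genes were 8% lower and 3.89% higher. SLC39A8 was at 8.33, 7.25 and 6.92 FPKM in KD morulae, against 20.4, 12.1 and 20.8 FPKM in NC morulae (-1.11, SE 0.23, adjusted p 0.0617; blocked adjusted p 0.0145). SLC30A2 was at 25.8, 20.7 and 11 FPKM in KD, against 60.3, 29.7 and 31.5 FPKM in NC morulae (-1.04, blocked adjusted p 0.0173). The iron importer SLC11A2 (-0.88) and SLC39A7, which releases zinc from the endoplasmic reticulum and Golgi (-0.62), followed. The class median was -0.22 and 16 of 22 genes had a negative difference, beside a median of -0.08 and 6814 of 11761 negative over all genes. Under quantile normalization with the block 3 were lower and 1 was higher.

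Mitochondrial carriers were called in both directions, with 5 higher and 3 lower in KD morulae. That is 24.2%, beside 11.9% of all genes (3.89% higher and 8% lower). SLC25A5 was at 74.5, 53.4 and 39.4 FPKM in KD, against 182, 69.5 and 120 FPKM in NC morulae (-1.08, SE 0.34, adjusted p 0.114; blocked adjusted p 0.0242). KD morula replicate 1 lay above NC morula replicate 2, so the groups overlapped. SLC25A5 held 8.8% to 11.7% of the ADP/ATP carrier sum in KD morulae and 10.8% to 21.3% in NC morulae. The dicarboxylate carrier SLC25A10 (-0.87, blocked adjusted p 0.0109) and the oxoglutarate/malate carrier SLC25A11 (-0.59, blocked adjusted p 0.029) were also lower.

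The higher mitochondrial carriers included SLC25A12 (0.73), the pyrimidine nucleotide carrier SLC25A33 (0.61), SLC25A30 (0.58) and SLC25A25 (0.56), with blocked adjusted p between 0.022 and 0.0409. SLC25A12 was at 4.03, 9.92 and 9.09 FPKM in KD, against 2.5, 4.81 and 4.96 FPKM in NC morulae. SLC25A28 was higher in all 3 KD libraries, at 10.8, 11.6 and 15.9 FPKM against 8.77, 7.48 and 7.9 FPKM in NC morulae, and missed the threshold (blocked adjusted p 0.0506). SLC25A6 (-0.30) and SLC25A3 (-0.51) were not called, with a blocked adjusted p of 0.113 and 0.0824.

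Of the other classes, the potassium/chloride cotransporter SLC12A4 had the lowest difference, at 14.9, 7.52 and 7.17 FPKM in KD morulae against 32.8, 16.0 and 18.9 FPKM in NC morulae (-1.12, SE 0.31, adjusted p 0.0853; blocked adjusted p 0.0063). The choline carriers SLC44A2 (-1.03) and SLC44A1 (-0.75), the thiamine carrier SLC19A3 (-0.87) and the creatine carrier SLC6A8 (-0.59) were lower. SLC6A8 was at 157, 149 and 120 FPKM in KD, against 290, 217 and 152 FPKM in NC morulae, with overlap. The scaffold gene SLC9A3R1 was lower too (-0.93, blocked adjusted p 0.0152). SLC17A7, which loads glutamate into synaptic vesicles of neurons, was higher, at 4.21, 10.8 and 8.99 FPKM in KD against 2.39, 3.03 and 4.0 FPKM in NC morulae (1.05, blocked adjusted p 0.0165). None of the 17 nucleotide sugar, 4 nucleoside and 2 monocarboxylate carriers was called in the blocked limma fit, where 1, 0 and 1 of them had an unadjusted p under 0.05.

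The treatment and stage comparisons share the NC morula libraries, so their values are set side by side and no relation between them is drawn. SLC39A8 had -1.11 for KD against NC morulae and 1.42 for NC morulae against earlier NC embryos. SLC1A1 had -0.96 and 1.14, SLC12A4 -1.12 and 1.91, SLC25A5 -1.08 and 1.85, and SLC2A1 -0.88 and 1.21. Among higher genes SLC25A12 had 0.73 and -2.72 and SLC1A5 had 0.63 and -1.95.

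At the 8/16-cell stage, with 2 KD and 2 NC libraries, 0 of the 139 genes passed (limma), beside 0.017% of all genes. Unadjusted p was under 0.05 for 5 genes, beside 4.37% of all genes, and the replicate block also gave 0, beside 0.0255% of all genes. Libraries did not overlap for 29 higher and 24 lower genes (38.1%), beside 33.2% of all genes (19.3% higher and 13.9% lower). The median size of the difference was 0.17, against 0.31 between the morula treatments (0.18 and 0.27 over all genes tested).

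SLC7A8 had the smallest unadjusted p, at 25.5 and 21.8 FPKM in KD, against 60.6 and 34.2 FPKM in NC embryos (-0.92, SE 0.30, adjusted p 1). SLC38A11 (-0.69) and the nucleotide sugar carrier SLC35B4 (-0.64) were lower without passing, and SLC35B2, which brings the sulfate donor into the Golgi (0.56), and SLC25A40 (0.59) were higher without passing. SLC35B4 was at 3.26 and 3.32 FPKM in KD, against 6.51 and 4.96 FPKM in NC embryos. SLC3A2 was at 40.2 and 33.3 FPKM in KD, against 18.8 and 26.5 FPKM in NC embryos (0.69), and also did not pass. SLC16A1 (0.35), SLC30A1 (-0.43), SLC8B1 (-0.39), SLC25A44 (-0.41), SLC35F5 (0.61) and SLC39A4 (-0.91) completed the 12 smallest p, with adjusted p of 1.

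Transporters that belong to SLC families but carry other symbols were listed apart, and 24 were tested. In KD embryos 0 rose and 1 fell by the morula stage (4.17%, beside 20% of all genes), and in NC embryos 6 rose and 3 fell (37.5%, beside 30.8%). MPC1, a subunit of the mitochondrial pyruvate carrier, was at 20.8, 11.8 and 10.4 FPKM in KD morulae, against 61.0, 29.9 and 29.6 FPKM in NC morulae (-1.40, adjusted p 0.0617; blocked adjusted p 0.0029). Its partner MPC2 was at 15.1, 15.4 and 12.9 FPKM in KD, against 26.6, 13.2 and 37.5 FPKM in NC morulae (-0.68, blocked adjusted p 0.136). In the blocked fit MTCH2, an insertase of the mitochondrial outer membrane, was lower (-0.69) and the lysolipid carrier MFSD2A was higher (0.76).

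Partners of the carriers were listed as well, with 8 genes tested. BSG, the chaperone that brings SLC16A1 to the surface, was at 244, 182 and 248 FPKM in KD morulae, against 330, 168 and 327 FPKM in NC morulae (-0.24, blocked adjusted p 0.293). The outer membrane pore VDAC2 rose with stage in NC (2.40, adjusted p 0.000527) and KD embryos (1.0, adjusted p 0.036), and VDAC1 was lower in KD morulae in the blocked fit (-0.77, blocked adjusted p 0.0188). In all, 1 partner rose and 1 fell with stage in KD embryos, beside 20% of all genes, and 4 rose and 0 fell in NC embryos, beside 30.8%. Between KD and NC embryos of the 8/16-cell stage all 8 differences were positive (median 0.53, against 0.01 for all genes), 6 of 8 did not overlap, beside 33.2% of all genes, and 0 passed (limma, 3 with an unadjusted p under 0.05).

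Amino acid shortage is known to raise ATF4 and its targets, several carriers among them, and 23 genes of this response were tested. In the blocked fit at the morula stage ATF4 was higher, at 143, 145 and 200 FPKM in KD, against 112, 96.5 and 101 FPKM in NC morulae (0.64, blocked adjusted p 0.0269). XPOT, a transfer RNA exporter, was lower (-0.79, blocked adjusted p 0.0214), and the other 21 were not called, ASNS (-0.09) and CHAC1 (0.25) among them. The 2 calls are 8.7% of the list, beside 11.9% of all genes. With stage, 2 rose and 6 fell in KD embryos and 2 rose and 6 fell in NC embryos (34.8% in each, beside 20% and 30.8% of all genes).

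Markers of other cells were read beside these values. Embryo markers were present, with POU5F1 at 277 to 531 FPKM in KD morulae and 449 to 673 FPKM in NC morulae (-0.60, blocked adjusted p 0.0329). In the blocked fit 6 of the 10 embryo markers were called, beside 11.9% of all genes (3.89% higher and 8% lower). NANOG (1.39), KLF17 (0.92) and ZSCAN5B (2.09) were higher in KD morulae, and CDX2 (-1.83), GATA3 (-1.32) and POU5F1 were lower. All 9 tested oocyte transcripts fell with stage in both treatments, beside 18.2% of all genes in NC and 14.8% in KD embryos. The 17 cumulus and granulosa cell markers summed to 65.7 to 141 FPKM in KD morulae and 75.4 to 86.4 FPKM in NC morulae, and to 168 to 170 FPKM in KD and 98.6 to 102 FPKM in NC embryos of the 8/16-cell stage, with FSHR at 0 in every library. In the blocked fit 3 of the 13 tested were higher and 1 was lower, beside 3.89% higher and 8% lower over all genes. Blood markers summed to 139 to 245 FPKM in KD and 110 to 161 FPKM in NC morulae, nearly all from HBA, while PTPRC stayed under 1 FPKM. Sperm and testis markers summed to 12.4 to 15.6 FPKM in KD and 7.9 to 12.4 FPKM in NC morulae. The part of these markers and cells in the solute carrier values was not tested.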

How the data were processed

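Per the labels' protocols, embryo RNA was extracted with Picopure columns and the poly(A) fraction went into NEBNext Ultra libraries. Per the submitters' processing notes, the tools were HISAT2, Cufflinks, Trimmomatic and featureCounts and the builds ARS-UCD1.2 and bosTau9; versions, the role of each tool and strand are not given in the sources used here. The authors deposited FPKM values in a table of 39911 lines. Counts were not analysed, so read depth and counting error are unknown. The 81 symbols on several lines (11211 lines) were left out, none of them an SLC gene. Every FPKM change is relative to the other transcripts of its library.

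The members and lists were chosen with earlier results of these data known, and the class of 3 genes that are not carriers was added after the symbols were seen. Symbols of 137 members matched RefSeq (ARS-UCD2.0) directly and 2 by synonym; names and neighbours only were taken from it. Values were analysed as log2(FPKM + 1) in R 4.3.3 with limma 3.58.1 (trend, 4 group means, all 10 libraries, 6 residual and 4.63 prior degrees of freedom), two-sided, with Benjamini-Hochberg adjustment over the 11761 genes that averaged 1 FPKM or more. The fit without the block was run on simulated data with independent libraries and no stage differences. The blocked fit was not tested in this way.

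Replicate numbers were taken to pair the morula libraries, since KD and NC libraries of one number departed from their group means together (r across genes 0.37, 0.325 and 0.312). The labels do not give a pairing, and libraries of unlike numbers were not compared in this way. The replicate number was therefore also fitted as a block. At the 8/16-cell stage r was 0.0558. With 2 libraries a group the deviations mirror each other, so this check cannot decide whether the numbers pair the libraries there.

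Named were the 12 members with the smallest p for each treatment comparison and all 26 called in the blocked fit, the 12 largest rises and falls with stage in NC embryos, the 3 highest members of each class, every SLC2 gene, those next to the level limit, 20 carriers picked by name, and up to 4 genes of a list by smallest p. Single results of 3 members are not reported here, though the counts include them. Other names, such as SLC1A3, SLC25A13, SLC12A9, SLC25A46, BSG and CHAC1, were chosen after their values were seen.

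Alternatives were other pseudocounts, filters, scalings, subsets of libraries, covariates and blocks.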

Additional observations from a re-analysis of the deposited data

How the results depend on the processing

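The number of solute carrier genes that passed between KD and NC morulae was 0 in the unblocked fit; it was 2 with a mean of at least 5 FPKM, 6 with array weights, and 0 to 9 when 1 library was left out. The replicate block gave 26, or 27 with quantile normalization, 26 with median ratio scaling, 4 with the RN18S1 covariate, and 0 to 11 without 1 replicate number. All alternatives that use the RN18S1 covariate, another scaling with the block or fewer pairs were chosen after seeing the data, as was leaving out the 3 genes that are not carriers.

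Between NC stages 62 genes passed; restricting the count to members with a mean of at least 10 FPKM gave 41, and leaving out 1 library gave 30 to 64. Between KD stages 36 passed; the replicate block shared over stages gave 55, members with a mean of at least 10 FPKM gave 22, and leaving out 1 library gave 9 to 43. Across stages r ran from -0.0324 to 0.255, which does not settle whether the numbers pair the libraries, and the block gave 76 in NC embryos. The 8/16-cell treatment comparison and the interaction stayed at 0 under every alternative run, the block included. No named gene reversed in sign under a setting run for it. Medians near 0 did, among them the KD stage median of the 139 genes, from -0.03 to 0.16 under quantile normalization. The KD stage balance turned from more falls to more rises under quantile normalization, median ratio scaling and equal sums without the MIR2887 genes. The blocked balance at the morula stage turned from more lower to more higher genes under quantile normalization. The blocked median of all genes tested moved as well, from -0.08 to -0.0. Shares of all genes are not set beside the counts under other scalings, covariates or fewer libraries. Those counts describe the fits and are no result about solute carriers. Among single genes, 11 values of NC stage changes missed the threshold under an alternative, 6 of them for SLC30A4. The cause of these differences was not tested. Depth is unknown, and 2 or 3 libraries a group limit the precision; a p that missed the threshold does not show that values were equal.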
